A study of Mus musculus with 20 samples.

Results

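The lists compared here hold the m6A positions of cardiomyocyte cultures (CM) that were wild type (WT) or knockout for Mettl3 (Mettl3-KO, here KO). Every position on either list was taken, after repeated lines were dropped. This gave 25617 positions in 7572 genes for CM WT and 13962 positions in 4962 genes for CM KO. Together these were 30456 different positions of the 42515 on the 4 lists of the series, which also has lists of WT and KO embryonic stem cells (ESCs). m6A was measured in RNA that stays attached to chromatin (Chrm6A-seq), with antibodies against m6A, and the RNA itself by sequencing of the same fraction (ChrRNA-seq). The labels give the strain C57BL/6 for all groups. CM were grown from ESCs through embryoid bodies in medium with ascorbic acid and were replated on gelatin, and no other treatment separates the groups. The sources used here do not say which part of Mettl3 was changed, how many ESC clones were used or how many cultures entered a library. Each group had 1 Chrm6A-seq list and 1 ChrRNA-seq file, so no difference below has a replicate check and none has a p-value.

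N6-methyladenosine (m6A) is a methyl mark on adenosines inside RNA, set in the nucleus by a writer complex in which METTL3 is the catalytic subunit and METTL14 and WTAP are partners. Writers prefer an A followed by a C and preceded by purines. How positions were called is not stated, and whether a motif was required for a call is not known. On every list, KO included, each position comes with 1 of 4 motifs. These are GGAC and AGAC, which have G before the methylated A, along with GAAC and, last, the A-rich motif AAAC. Reader proteins of the YTH family bind the mark and influence splicing, export, translation and decay of the RNA, and in chromatin-attached RNA the mark can lie in introns and long noncoding RNAs as well as in the mature message.

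The level of Mettl3 did not check the genotype labels. Its RNA stood at 1.18 RPKM (read number per gene length and library size) in CM WT and 1.07 RPKM in CM KO, and at 1.73 and 1.28 RPKM in ESC WT and KO. A value over the whole gene does not show whether a working protein was made, and WT and KO below are the libraries so labelled. Mettl3 and Mettl14 held no position on any list. Cardiomyocyte markers separated the cultures: the summed level of 10 markers was 8.25 RPKM in CM WT and 0.980 RPKM in CM KO, 8 of the 10 were lower in KO, and 5 of them were under 0.1 RPKM there. Fibroblast markers were also lower in KO, 6 of 6 (summed 28.8 against 8.47 RPKM), while 6 of the 7 ESC markers were found and summed to 7.90 against 13.7 RPKM, and 3 blood markers summed to 40.6 against 45.0 RPKM. Smooth muscle markers summed to 4.16 against 1.89 RPKM, visceral endoderm markers to 15.2 against 5.87 RPKM, endothelial markers to 2.52 against 3.84 RPKM, and the 2 neural markers found to 0.499 against 0.538 RPKM. Markers of other cell types were thus present in both cultures at unequal levels, and in these bulk samples fewer cells of a type and less RNA per cell cannot be told apart. The part of cell makeup in the results below was not tested.

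A listed position counts bases from the gene's 5′ start along the unspliced gene, with the first base as 0. The count was checked against RefSeq sequences of gene starts (GRCm38.p6): of 449 positions on any list within 45 bases of a start, 211 matched the listed motif at that base, and 3 to 9 matched at a shift of 1 or 2 bases. The windows below show 3 positions of each kind from genes at similar RNA level in WT and KO, so that the letters behind a listed position can be seen. Capitals mark the listed motif, each window runs 5′ to 3′ on the gene's strand, and the coordinates are those of the 4 capital letters. The first 3 were on both lists (shared), the next 3 on the WT list alone and the last 3 on the KO list alone.

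Rbm39, shared, chr2:156180208-156180211, minus strand: ttgcggctccgggAGACcccgggtgtttgt
Gja1, shared, chr10:56377328-56377331, plus strand: gctccaagttaaaAAACgcttttacgaggt
Tspan31, shared, chr10:127070236-127070239, minus strand: tgggagtcctacaAGACggtcctcgatacc
Srcap, WT only, chr7:127512010-127512013, plus strand: gtgtatcgcgagaAGACgggccgctctggc
Nrp1, WT only, chr8:128359106-128359109, plus strand: ccgcagacaacccGGACctcctctgggcgc
Atp5c1, WT only, chr2:10080483-10080486, minus strand: ttagcgagaccgaGGACgcaggcggagcgg
Ahnak, KO only, chr19:8989311-8989314, plus strand: agctctgccgcggGGACtgcactgtccgcc
Nrp1, KO only, chr8:128359097-128359100, plus strand: ctctccttcccgcAGACaacccggacctcc
Emc4, KO only, chr2:112368001-112368004, minus strand: agtgcactgcggcGAACgcgaggaagtcgg

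The windows of Nrp1, a receptor for VEGF and semaphorins, overlap. The KO list placed its position on an AGAC at base 24 of the gene and the WT list on a GGAC at base 33. The sources used here do not give the precision of a listed position, so a single site and separate sites cannot be told apart. The RNA of Nrp1 was at 2.62 RPKM in WT and 2.49 RPKM in KO. Any of the 4 motifs occurred in 50.1% of all 32851 RefSeq start windows of 50 bases, read on the gene's strand and with overlapping matches counted, so a motif alone is common. GGAC made up 36.0% of the 211 listed positions matched in such windows and 29.6% of all 22789 occurrences of the 4 motifs there.

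The KO list was the shorter of the pair. It held 54.5% as many positions as the WT list, with a mean of 2.81 against 3.38 positions per listed gene and 193 against 430 genes with at least 10 positions. In ESCs the KO list held 106% as many positions as the WT list (18076 against 16983). Of the CM positions, 9123 were on both lists at the same base, 16494 on the WT list only and 4839 on the KO list only. The shared positions were 35.6% of the WT list and 65.3% of the KO list. The sources used here give neither the depth of the Chrm6A-seq libraries nor a score per position, and part of the difference in list length cannot be told apart from a difference in sequencing or enrichment.

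Genes dropped off the list far more often than they joined it. Both CM lists held 4847 genes, the WT list alone 2725 and the KO list alone 115. The genes on the WT list alone carried 4260 positions, and their median RNA level was 0.627 RPKM in WT and 0.643 RPKM in KO, below the 1.03 and 1.16 RPKM of genes on both lists. One gene of each kind was a change of name only. The transcription factor gene Adnp had 22 positions on the KO list and none on the WT list, and Gm20716, which overlaps it, had 18 on the WT list and none on the KO list. Of these, 13 coincided at a constant shift of 23252 bases, so they are the same bases listed under different genes. In the RNA files Adnp stood at 7.11 RPKM in WT and was not listed in KO, and Gm20716 at 0.651 and 5.25 RPKM. No other such pair was found among overlapping genes.

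Many positions on the KO list alone lay close to WT positions. Within the same gene, 42.7% of them were at most 50 bases from a WT position and 55.6% at most 100 bases. Of the positions on the WT list alone, 12.5% and 16.8% had a KO position that near. Counted within 100 bases in place of the same base, 84.6% of the KO list and 46.4% of the WT list had a partner. The precision of a listed position is not given. The shared, WT-only and KO-only classes, and the motif shares of these classes below, rest on the same base and carry this limit. The numbers near the other list were close on both sides (2691 KO-only and 2766 WT-only positions within 100 bases), so the shares set nearly equal numbers against lists of unequal length.

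The ESC lists were used to ask which CM positions were also marked before differentiation. For this and what follows, genes at similar RNA level were those with at least 1 RPKM in both CM files and a KO to WT ratio of RPKM between 2/3 and 1.5. There were 3494 such genes, 2796 of them with a position on either CM list, and their median RPKM ratio was 1.12. In these genes, 76.1% (95% Clopper-Pearson interval 74.9 to 77.2) of the 5177 shared positions were also on an ESC list. The share was 38.5% (37.5 to 39.6) of the 7884 positions on the WT list only and 45.2% (43.3 to 47.1) of the 2782 on the KO list only. Read the other way, 56.4% of WT positions that were also on an ESC list were on the KO list, against 20.4% of those on no ESC list and 70.2% of those on both ESC lists. Positions seen in ESCs of both genotypes were thus those most often kept in KO cultures. All these intervals cover counting error only, and neighbouring positions of a gene are not independent.

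**Figure D1:**
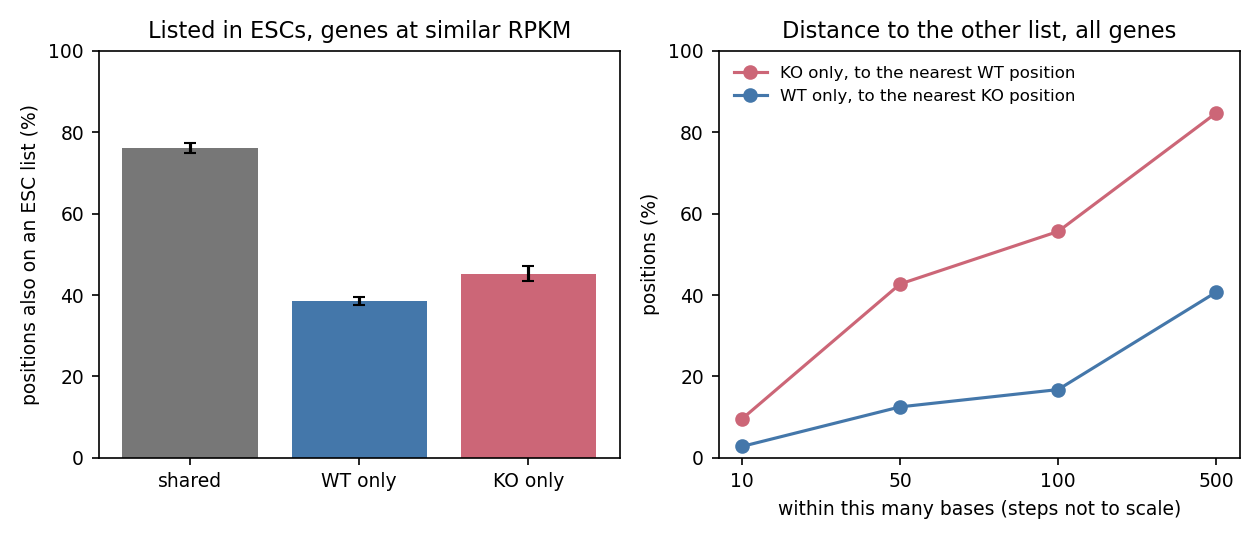
Left, percent of shared, WT-only and KO-only m6A positions that were also on an ESC list, in genes at similar RPKM (bars, with 95% Clopper-Pearson intervals); shared positions stand at 76.1%, WT-only at 38.5% and KO-only at 45.2%. Right, percent of KO-only and WT-only positions of all genes that lie within 10, 50, 100 or 500 bases of a position on the other list; the KO-only points lie above the WT-only points throughout, at 55.6% against 16.8% within 100 bases.

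The motif makeup of the lists was close, and the difference lay between the classes. GGAC made up 33.5% (32.9 to 34.1) of WT positions and 32.8% (32.0 to 33.5) of KO positions, and in genes at similar RNA level the shares were 32.2% and 32.0%. AAAC made up 18.4% (17.9 to 18.8) of the WT list and 18.98% (18.3 to 19.6) of the KO list. Among shared positions in genes at similar RNA level, GGAC was 34.7% (33.4 to 36.0) and AAAC 17.4% (16.4 to 18.5). Among positions on the KO list only, GGAC was 27.0% (25.4 to 28.7) and AAAC 24.7% (23.1 to 26.4), with WT-only positions between them at 30.6% and 22.0%. AGAC and GAAC differed little, at 24.8% to 25.2% and 22.6% to 23.0% over the 3 classes. In step with this, 42.7% of WT positions with GGAC and 34.2% of those with AAAC were on the KO list.

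Keeping also differed with place in the gene and with RNA level. By the RefSeq gene span, 51.4% (48.5 to 54.2) of WT positions in the first 1 kb of genes at similar RNA level were on the KO list, against 32.6% (30.2 to 35.0) of those in the last 1 kb. The share was 38.9% (37.7 to 40.0) in the middle of genes, without the first and last 10% of the span. As parts of each whole list, 30.4% of KO positions and 33.3% of WT positions lay in the last 10% of the gene. These places are approximate, because listed starts and RefSeq starts can differ: 211 of 449 positions near a start matched their motif at the RefSeq start. Over all genes, the share of WT positions kept went from 23.7% at a mean under 0.5 RPKM to 50.1% at 8 RPKM or more. In genes at similar RNA level it was 37.7% at 1 to 2 RPKM, 41.0% at 2 to 4, 39.2% at 4 to 8 and 50.4% at 8 or more. The sources used here give no reads per position, and whether this share moves with depth was not tested.

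**Figure D2:**
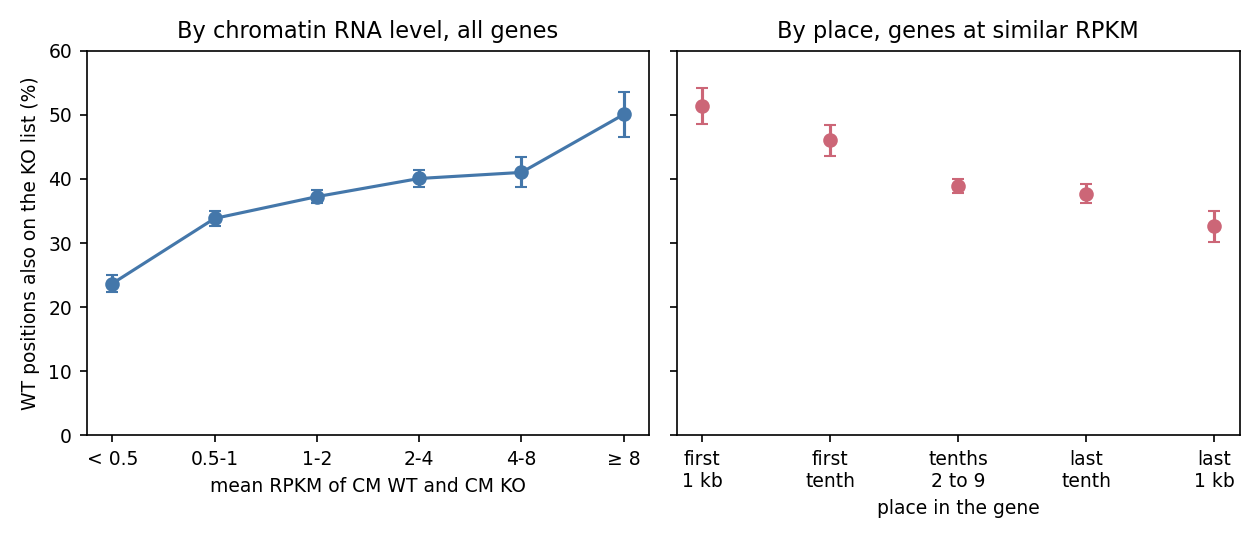
Percent of CM WT positions that were also on the CM KO list, with 95% Clopper-Pearson intervals, by the mean ChrRNA-seq RPKM of the gene in both cultures (left, all genes) and by place in the gene (right, genes at similar RPKM). The share was 23.7% in the lowest and 50.1% in the highest class of RPKM, and 51.4% in the first against 32.6% in the last 1 kb.

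Genes at similar RNA level together had 13061 positions on the WT list and 7959 on the KO list, or 60.9% as many. Fewer positions on the KO list were found in 2070 of the 2796 genes (74.0%), equal numbers in 542 and more in 184 (6.58%). Of the 989 such genes with at least 5 positions on either list, 351 (35.5%) had at least 2-fold fewer on the KO list and 2 (0.202%) at least 2-fold more. Over all genes with at least 5 positions, without the match on RNA, 661 of 1635 (40.4%) had at least 2-fold fewer and 10 (0.612%) at least 2-fold more. When KO numbers were scaled up 1.83-fold to the WT total, the 351 and 2 genes became 98 and 75. Under that scaling a gene or list reads as higher in KO wherever its KO positions are over 54.5% of its WT positions. RNA level and positions moved together at the edges: in 133 genes with an RPKM ratio under 2/3 the KO list held 27.6% as many positions as the WT list (220 against 797), and in 372 genes with a ratio over 1.5 it held 83.8% (1017 against 1213).

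**Figure D3:**
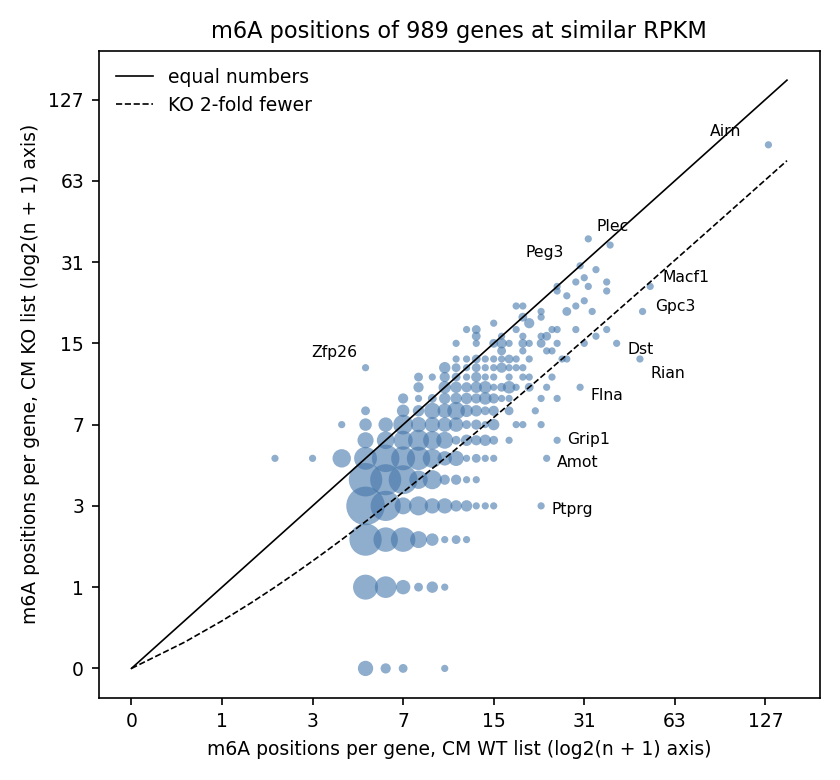
Positions per gene on the CM WT list (x axis) and the CM KO list (y axis), both on a log2(n + 1) axis, for the 989 genes at similar RPKM with at least 5 positions on either list; the area of a point grows with the number of genes at it, the full line marks equal numbers and the dashed line 2-fold fewer in KO. Most points lie below the full line (846 genes fewer, 67 equal, 76 more); Airn stands at 130 and 86, Ptprg at 22 and 3, and Zfp26 at 5 and 12.

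The largest drop in number at similar RNA level was in Airn (chr17:12741311-12859884), the imprinted long noncoding RNA that overlaps Igf2r and silences it in cis. It had 130 positions on the CM WT list, 86 on the CM KO list, 0 on the ESC WT list and 1 on the ESC KO list. Its RNA stood at 7.46 and 7.11 RPKM in CM and at 0.286 and 0.265 RPKM in ESCs. It is the 1 gene of the 15 with the largest drops that reads as higher in KO once the lists are scaled to equal totals (158 against 130). Of its WT positions, 48 were also on the KO list (36.9%, 28.6 to 45.8), and none on either list lay beyond base 88602 of a gene of 118574 bases. Positions thus ran through most of this RNA in both cultures, at a median spacing of 353 bases in WT and 395 bases in KO. RNA from Igf2r and Mas1, which overlap Airn, may be counted with it where strand was not used.

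The other 14 genes with the largest drops encode proteins of several kinds and 1 noncoding RNA, Rian. Macf1 and Dst, which link actin to microtubules, went from 52 to 25 and from 40 to 15 positions, while in ESCs they had 28 and 36 positions in WT and 34 and 43 in KO. Flna, the actin crosslinker filamin A, had 30 positions in CM WT and 10 in CM KO, and 7 and 14 in ESC WT and KO. Its RNA was at 9.37 and 7.97 RPKM in CM. The glypicans Gpc3 (49 and 20) and Gpc6 (22 and 7) and the heparan sulfate polymerase gene Ext1 (37 and 17) belong to cell-surface heparan sulfate. The receptor phosphatase gene Ptprg had 22 and 3 positions at 1.91 and 1.57 RPKM, and all 3 KO positions were shared. Amot, which encodes the junction and YAP regulator angiomotin, had 23 and 5 positions at 4.92 and 6.55 RPKM and none in ESCs; 16 of its WT positions lay in the last 10% of the gene and 3 of its KO positions. The other large drops were in Rian (48 and 13), Grip1 (25 and 6), the ubiquitin ligase gene Nedd4 (34 and 16), the endoplasmic reticulum gene Rtn4 (25 and 9), Dido1 (31 and 15) and the histone demethylase-like gene Jmjd1c (27 and 13). On the ESC lists, Dido1 had 30 positions in WT and 45 in KO, whereas Nedd4 had 25 and 19, Jmjd1c 41 and 34, and Rian 7 and 1.

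Among the genes at similar RNA level with at least 5 positions, 14 had none on the KO list. They included Lamb1, a laminin chain (6), Tgfbr1, a TGF-beta receptor (5), and Actn4, an actin crosslinker (7). These 3 were picked after their values were seen.

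The largest gain was in the zinc finger gene Zfp26 (chr9:20428318-20460169), with 5 positions in CM WT and 12 in CM KO. All 5 WT positions were shared: an AGAC at 21636, an AGAC at 22562, an AAAC at 23896, a GAAC at 24196 and a GGAC at 26250. The 7 added on the KO list lay between base 21606 and base 23656, and 4 of these were on an ESC list. Its RNA was at 2.32 and 2.63 RPKM, and the ESC lists had 9 and 11 positions. Zfp26 is 1 of the 2 genes past 2-fold; the other was Nup50, a nuclear pore gene, with 2 and 5 positions, named after its values were seen. The other genes of the 10 with the largest gains differed by 3 to 6 positions. They included Plec, the linker protein plectin (32 and 38), and the RNA-binding protein genes Sfpq (13 and 17), Ptbp2 (13 and 17), Zfp207 (8 and 11) and Pabpc1 (4 and 7). The RPKM ratio of Pabpc1, from 7.13 to 10.1 RPKM, was near the upper bound of the match. RNA was also higher in KO in most of the 10. The RPKM ratio was 1.39 for Zfp451 and for Zfp207, 1.35 for Kansl1, 1.30 for Prrc2c and 1.27 for Ptbp2. The median of all genes at similar RNA level was 1.12. Zfp26 was near that median at 1.14, and Sfpq (1.08) and Plec (0.770) lay below it. Whether the gains in positions follow RNA level was not tested.

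The genes with most shared positions after Airn still had positions on 1 list only. From 50.0% to 71.9% of the WT positions of the 6 genes given here were on the KO list. Plec shared 23 positions, Zfp292 shared 22 of 38 in WT and 36 in KO, and the imprinted gene Peg3 shared 19 of 30 in each. The H3K4 methyltransferase genes Kmt2d (32 and 25) and Kmt2a (34 and 29) shared 18 and 17 positions, and the kinase gene Wnk1 (29 and 26) shared 17. Of the 22 shared positions of Zfp292, 19 were also on an ESC list, while of the 19 of Peg3 only 6 were. Peg3 had 9 and 4 positions in ESCs, where its RNA was at 2.33 and 1.31 RPKM against 15.0 and 11.6 RPKM in CM.

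Of the sarcomere and Z-disc genes, titin held most positions on the WT list. Ttn (chr2:76703980-76982557), the giant elastic protein of the sarcomere, had 151 positions in CM WT, the most of any gene, and 1 in CM KO, with 17 and 14 on the ESC lists. Its RNA also differed, at 2.18 RPKM in CM WT and 0.140 RPKM in CM KO, so Ttn is outside the match. The WT positions spanned base 48 to base 277589 at a median spacing of 317 bases, 58 of them were GGAC, and 19 were on an ESC list. The 9 listed members of the sarcomere and Z-disc list had 180 positions on the WT list and 10 on the KO list, and 9 of these 10 were in Tpm1. At similar RNA level only 2 had positions, together 23 and 9, and 22 and 9 of these were in Tpm1, a tropomyosin of muscle and nonmuscle filaments, at 7.03 and 5.96 RPKM.

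Cardiac transcription factors at similar RNA level lay near the value of all such genes, with 48 and 28 positions (58.3% against 60.9%). Of 8 matched members, 7 had fewer positions on the KO list and 1 had as many, where 74.0% of all matched genes had fewer. Tead1, the DNA-binding partner of YAP, had 11 and 9, Tbx20 had 8 and 5, and Meis2 had 7 and 7. Gata4 had 8 and 1 positions, but its RNA was at 2.01 and 0.964 RPKM. The calcium exchanger gene Slc8a1 likewise went from 15 to 3 positions with RNA at 1.86 and 0.233 RPKM, while Gja1, the connexin of cardiac gap junctions, had 11 and 8 positions at 7.40 and 8.07 RPKM.

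Across 26 gene lists with at least 20 WT positions in matched members, the KO list held from 30.8% to 81.0% as many positions as the WT list, against 60.9% over all genes at similar RNA level. In 14 of the 26 the value was under 60.9%. The lists were written with earlier results of these data known and some share genes, so their values are a description.

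**Figure D4:**
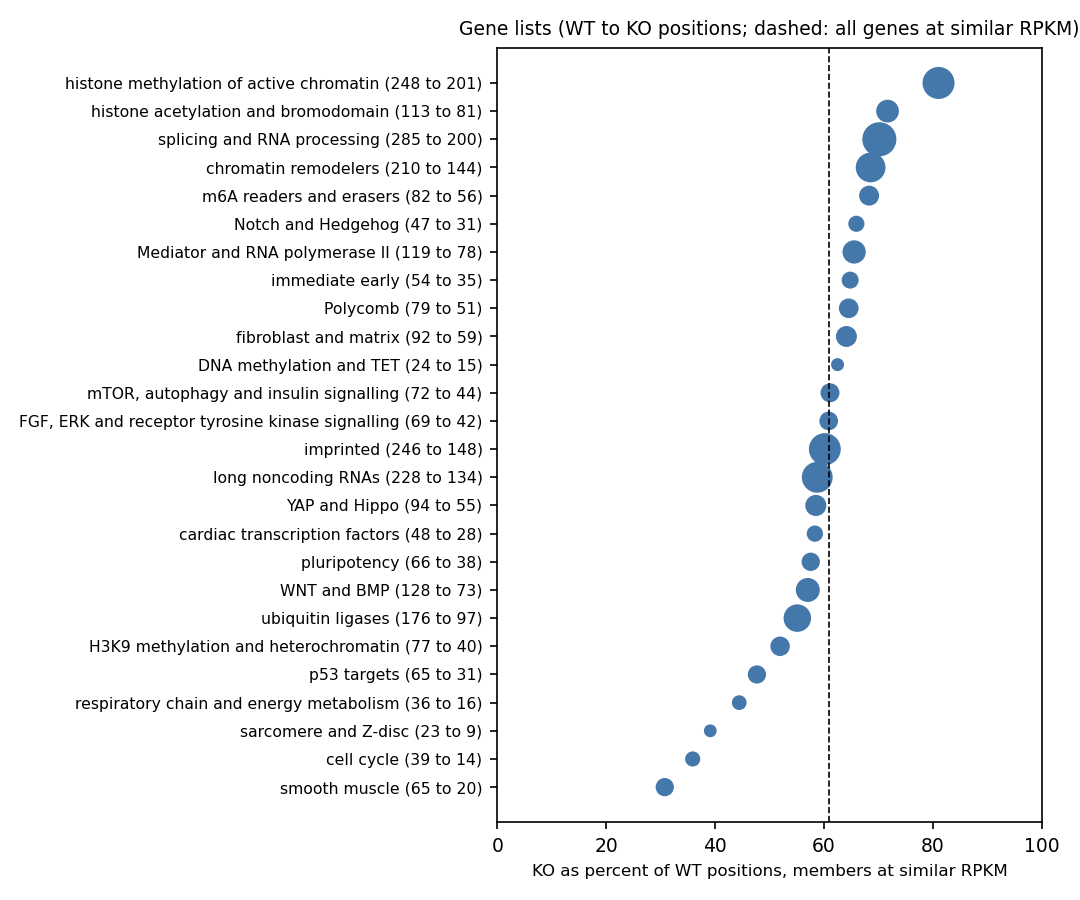
Positions on the CM KO list as percent of those on the CM WT list (x axis) for gene lists with at least 20 WT positions in members at similar RPKM; the area of a point grows with the WT positions, and WT and KO positions stand beside each name. The dashed line marks all genes at similar RPKM (60.9%), smooth muscle stands lowest at 30.8% and histone methylation of active chromatin highest at 81.0%.

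The lowest value belonged to the smooth muscle and contractile cytoskeleton list. All 5 matched members had fewer positions, 65 and 20 in all, and the 4 with at least 5 positions were past 2-fold, against 74.0% and 35.5% of all matched genes. The 4 were Flna, the nonmuscle myosin genes Myh9 (15 and 3) and Myh10 (9 and 3), and the focal adhesion gene Lpp (10 and 4). The summed level of the 4 smooth muscle markers was lower in KO, as given above, and whether that bears on these genes was not tested. Myh10 RNA was at 1.56 and 1.84 RPKM. In ESCs these 4 genes had 1 to 7 positions in WT and 1 to 14 in KO.

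Targets of the tumour suppressor p53 also lay under the value of all genes. Of 12 matched members 10 had fewer positions and 2 as many, 65 and 31 in all (47.7%). All 5 with at least 5 positions were at or past 2-fold fewer. Over all matched genes, 74.0% had fewer and 35.5% of those with at least 5 positions were at or past 2-fold. They were the p53 ubiquitin ligase gene Mdm2 (14 and 6) and its relative Mdm4 (11 and 3), the stress gene Trp53inp1 (8 and 4), the antiproliferative gene Btg2 (8 and 4) and the cyclin G1 gene Ccng1 (7 and 3). RNA of Mdm2 was at 5.07 and 5.06 RPKM, and that of Mdm4 at 2.25 and 3.26 RPKM. Cell cycle genes at similar RNA level had 39 and 14 positions, with 12 of 15 members fewer (74.0% of all matched genes were). The value was 35.9% in matched members but 64.8% over all members (125 and 81 positions), as the members with most positions were outside the match. Of these, the proliferation marker Mki67 had 36 positions on each list, with RNA at 5.13 and 9.35 RPKM.

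Signalling lists lay near the value of all genes. WNT and BMP genes had 128 and 73 positions (57.0%), with 15 of 18 members fewer, against 74.0% of all matched genes. Of the 12 with at least 5 positions, 6 had at least 2-fold fewer, against 35.5% of all such genes. On this list, the WNT effector β-catenin gene Ctnnb1 had 11 and 2 positions at 6.49 and 6.41 RPKM. The coreceptor gene Lrp6 had 12 and 3, while the receptor gene Fzd2 had 5 and 5. Ubiquitin ligases and related genes had 176 and 97 (55.1%), among them Huwe1 with 24 and 11 and Birc6 with 18 and 7.

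Several lists of chromatin and RNA-processing genes lay above that value, and H3K9 and heterochromatin genes below it. Genes for histone methylation of active chromatin, mainly methyltransferases and demethylases of H3K4 and H3K36, had 248 and 201 positions (81.0%), with 15 of 20 members fewer, near the 74.0% of all matched genes, and 3 more. Of the 16 with at least 5 positions 1 was at 2-fold fewer, against 35.5% of all, Kmt2e (12 and 6). Setd5 had 19 and 19 positions and Kmt2b 13 and 16. Histone acetylation genes stood at 71.7% (113 and 81), splicing genes at 70.2% (285 and 200) and chromatin remodelers at 68.6% (210 and 144). The splicing list was uneven: 10 of its 23 genes with at least 5 positions were at or past 2-fold fewer, against 35.5% of all such genes, while the median KO to WT ratio of positions was 0.593 over its matched members with a WT position and 0.5 over all such genes. Those with fewer included Srsf11 (9 and 1) and Srrm1 (9 and 1), and Ddx17 had 22 and 20, Hnrnph1 12 and 12, and Hnrnpl 11 and 12. Listed H3K9 and heterochromatin genes had 77 and 40 (51.9%), all 12 matched members with fewer, against 74.0% of all. Of the 5 with at least 5 positions, 1 had at least 2-fold fewer, against 35.5% of all such genes. Of 75 zinc finger genes named Zfp and a number, a group formed after seeing the data, the matched positions were 506 and 373 (73.7%).

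Of the 12 genes on the list of the writer complex, 5 held positions on the CM lists, and Mettl3, Mettl14 and Mettl16 held none there. Of the writer partners, the RNA-binding subunit gene Rbm15 had 10 and 9 positions and Wtap 6 and 4, both at similar RNA level. Virma, the scaffold subunit, had 11 and 3 positions at 0.982 and 0.974 RPKM, just under the minimum of 1 RPKM, and 5 and 6 in ESCs. Zc3h13 had 7 and 5, and the ligase-like gene Cbll1 3 and 1. Among readers and erasers, 11 of 12 matched members had fewer positions, against 74.0% of all matched genes, and 1 as many, 82 and 56 in all (68.3%). That value lay above the 60.9% of all matched genes. Of the 9 members with at least 5 positions, 1 had at least 2-fold fewer, against 35.5% of all such genes. The cytoplasmic readers Ythdf1, Ythdf2 and Ythdf3 had 10 and 6, 7 and 7, and 9 and 8 positions, the nuclear reader Ythdc1 had 6 and 5, and the demethylase gene Fto had 6 and 4.

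Imprinted genes, of which only 1 parental copy is expressed, included several of the most marked genes and moved in unlike ways. At similar RNA level 10 of them had 246 and 148 positions (60.2%), with 6 fewer and 4 equal, where 74.0% of all matched genes had fewer. Airn alone held 130 of the 246 and 86 of the 148, so the 60.2% rests largely on 1 gene. Outside the match, the growth factor receptor adaptor gene Grb10 (chr11:11930499-12037428) had 59 positions in CM WT and 0 in CM KO, with 5 and 0 in ESCs. Its RNA was at 7.05 and 0.380 RPKM in CM and at 3.55 and 0.194 RPKM in ESCs, so both measures were low in both KO libraries. The long noncoding RNA Kcnq1ot1 (chr7:143213111-143296547), which lies within Kcnq1, went the other way, with 51 and 77 positions in CM and 11 and 70 in ESCs. Its RNA was at 4.88 and 11.0 RPKM in CM and at 3.84 and 8.43 RPKM in ESCs, and 28 of its CM positions were shared. The noncoding genes Rian, Meg3 and Mirg of the Dlk1 domain had fewer positions and less RNA in KO. Rian had 48 and 13 positions at 20.3 and 15.8 RPKM. Meg3 had 22 and 16 positions at 18.3 and 10.0 RPKM, and Mirg 16 and 6 at 7.42 and 4.80 RPKM. Peg10 RNA was at 20.6 and 59.0 RPKM, with nearly equal positions (17 and 16). Across these genes the number of positions and the RNA level did not always differ in the same direction.

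**Figure D5:**
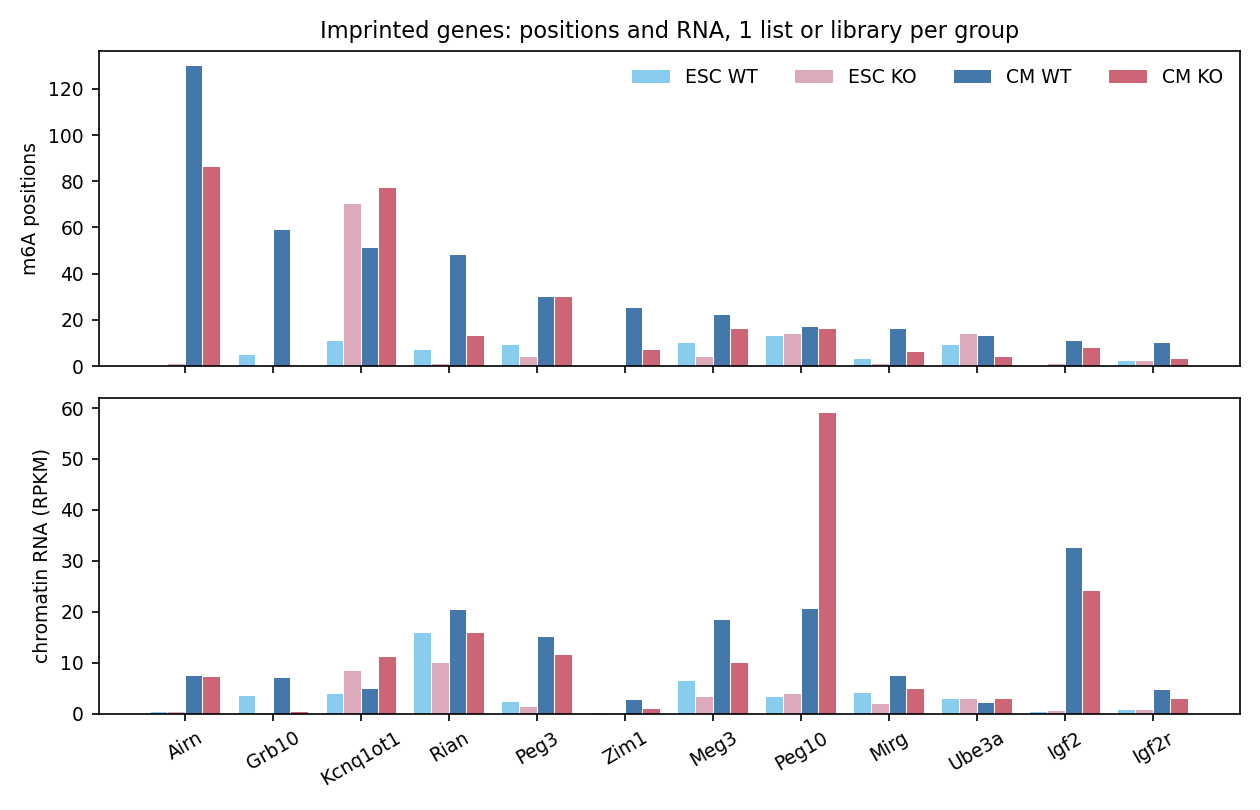
m6A positions (top) and ChrRNA-seq RPKM (bottom) of 12 imprinted genes on the WT and KO lists or libraries of ESCs and CM, with 1 list or library per group and so no error bars. Grb10 has 59 positions in CM WT and 0 in CM KO, Kcnq1ot1 51 and 77, Airn 130 and 86, and Peg3 30 and 30.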

How the data were processed

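Chrm6A-seq and ChrRNA-seq, each with 1 sample per group, were analysed for CM WT and CM KO, with the ESC samples for comparison; ATAC-seq was not used. Per the submitters' processing notes, the tools included HISAT2, MACS2, Bowtie, Picard and cutadapt, and the build was mm10; the sources used here give no versions, parameters or strandedness. The deposited m6A lists hold an Ensembl gene, a position and a 4-base motif per line, with no score, read number or normalised level. The authors deposited ChrRNA-seq values as RPKM per gene, without a header; no test for counts fits this unit and none was made. How positions were called is not stated.

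Repeated lines were dropped (136 in CM WT, 88 in CM KO), and positions of 1 gene were called shared when the base was the same. Symbols matched 99.7% of positions. RefSeq gene spans (GRCm38.p6) covered the gene of 96.6% of CM positions, of which 2.68% lay past the RefSeq end and were left out of places in the gene. Genes were compared with at least 1 RPKM in both CM files, an RPKM ratio between 2/3 and 1.5, and, for calls of 2-fold, at least 5 positions in either list. Named genes were, among genes at similar RPKM, the 15 with the largest drop, those with at least 10 WT and no KO positions, the 10 with the largest gain and the 10 with most shared positions. Also named were list members with at least 5 positions, the 5 genes with most positions in each list and the writer genes; some genes that meet this rule are not reported here. The members and the 33 gene lists (807 genes) were chosen with earlier results of these data known. Intervals are exact 95% binomial. Python 3.11.15, pandas 2.3.3 and scipy 1.17.1 were used, and the matching was tested on simulated lists. Table columns left unused for want of a sample numbered 0.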

Additional observations from a re-analysis of the deposited data

Results flagged for a closer look

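Several values went in opposite directions between KO and WT in the cardiomyocyte cultures and in ESCs. Each group has 1 list, so these differences between the cell types were not tested. The list total was 11655 positions lower in KO than in WT in CM (KO minus WT -11655) and 1093 higher in ESCs. The share of AGAC was lower in KO by a difference of -0.344 percentage points in CM and higher by 0.268 in ESCs. Its WT and KO intervals overlapped in CM (24.5 to 25.6 and 24.0 to 25.4) and in ESCs (24.0 to 25.3 and 24.3 to 25.6). In genes at similar RPKM the CM shares were 24.96% in WT and 25.17% in KO, so the direction in CM was not stable. The share of GGAC was lower in KO in both, at 33.5% and 32.8% in CM and 31.3% and 29.0% in ESCs.

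Of the 15 genes at similar RPKM with the largest drops, 8 had more positions in KO in ESCs, where the whole KO list was also the longer (106% of WT). The share of all genes with more positions in ESC KO is not given here, and the 15 were picked by their drop in CM. The 8 are therefore a description and do not set these genes apart from others. Of the other 7, Rian, Nedd4, Jmjd1c, Ext1 and Grip1 had fewer in ESC KO, and Amot and Gpc6 had none in either. The KO minus WT difference of Airn was -44 in CM and 1 in ESCs, and that of Gpc3 was -29 and 6. For the cytoskeletal linkers Macf1, Dst and Flna it was -27, -25 and -20 in CM and 6, 7 and 7 in ESCs. For Ptprg it was -19 and 2, for Rtn4 -16 and 5, and for Dido1 -16 and 15. On the ESC WT and KO lists Airn had only 0 and 1 positions, with RNA at 0.286 and 0.265 RPKM. Gpc3 had 2 and 8 there and Ptprg 3 and 5, so the ESC differences of these genes rest on few positions. Of the genes with the largest gains, Plec differed by 6 in CM and -8 in ESCs, and Prrc2c by 3 and -1.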

How the results depend on the processing

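No paired analysis was possible because each group had 1 list and the labels give these samples no replicate numbers. No replicate could be left out for the same reason. KO positions stayed between 54.2% and 54.9% of WT positions when repeated lines were kept, when positions under 100 bases apart were joined, and without the 5 genes with most WT positions, an alternative chosen after seeing the data. Shared positions were 37.4% of the WT list and 68.7% of the KO list when matched within 10 bases, 46.4% and 84.6% within 100 bases, and 39.6% of the WT list in genes at similar RPKM only. For the motif shares, GGAC in WT was 32.2% in genes at similar RPKM and 31.4% with each motif counted once per gene, where GGAC in KO was 31.5% and GAAC in WT 24.0%. AAAC was 20.2% (WT) and 20.0% (KO) in genes at similar RPKM and 19.2% and 19.9% once per gene. Thus GGAC was no longer the lower share in KO when each motif was counted once per gene.

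Genes at least 2-fold fewer and more in KO numbered 97 and 1 of 325 tested at a minimum of 10 positions, 98 and 75 of 989 with KO scaled to the WT total, and 661 and 10 of 1635 without the match on RPKM, against 351 and 2 of 989. With no minimum RPKM 576 of 1448 were fewer. Except under scaling, the number of genes tested changed as well, and the share of genes with fewer positions was not constant. It was 35.5% of the 989 and 40.4% of the 1635 without the match on RPKM, and it was lower at the minimum of 10 positions. With a narrower match on the RPKM ratio, from 0.8, 1 was more, and with the match on log2(RPKM + 1) 4 were more. Other counts of genes stayed within 1.5 times. Of the 26 gene lists, 4 moved without the match and all 26 under scaling. Scaling multiplies the KO positions of every list by the same 1.83, so that all 26 moved says nothing about single lists. The cause of the other changes was not tested. The sources used here give no depth for the m6A libraries, and no limit of detection can be set for a position missing from a list.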

Other observations

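Matrix and secretory genes of other cell types were among the much-marked genes of the cultures. At similar RPKM, the proteoglycan gene Vcan had 37 positions in CM WT and 24 in CM KO, and the fibronectin gene Fn1 25 and 24. The collagen gene Col1a1 had 11 and 3 positions with RNA at 15.5 and 4.34 RPKM, and Col6a3 had 13 and 0 with RNA at 0.233 and 0.0369 RPKM. The lipoprotein gene Apob, a visceral endoderm marker, had 35 and 27 positions, 23 of them shared, although its RNA was at 10.3 and 4.21 RPKM, and the endocytic adaptor gene Dab2 had 12 and 0 at 1.44 and 0.489 RPKM.

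Nuclear body RNAs differed little. Neat1, the scaffold RNA of paraspeckles, had 18 and 17 positions in CM, 13 of them shared, against 2 and 12 in ESCs, and its RNA was at 16.5 and 12.1 RPKM in CM. Malat1 had 8 and 6 positions at 647 and 559 RPKM. Of the genes with most positions, the predicted genes Gm42416 and Gm20388 had 144 and 84 and 82 and 47 positions at under 1 RPKM. Neither matched the RefSeq table by name, and whether they span other listed genes was not tested.

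Among listed positions found in RefSeq start windows, the base after the motif was other than G in 70.6% of 211, against 86.4% of all 22789 occurrences of the 4 motifs in such windows. By class it was 67.7% of 62 shared, 72.3% of 83 WT-only and 83.3% of 18 KO-only positions, with wide intervals (54.7 to 79.1, 61.4 to 81.6 and 58.6 to 96.4).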
